A study of Homo sapiens with 40 samples.

Results

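RNA recovered with an antibody against DDX6 was compared directly with RNA recovered with an antibody against eIF4A1, without reference to total RNA. The comparison rested on the 3 DDX6 IP libraries and the 3 eIF4A1 IP libraries of a native RNA immunoprecipitation and sequencing experiment (RIP-Seq). These are 6 of the 40 libraries of the series, identified by title and chosen with earlier results of these data known. Both IPs captured the endogenous proteins from lysates of HEK293, an established human embryonic kidney cell line that expresses several neuronal genes. The cells carried no tag or transgene for the experiment, received no siRNA and were not fractionated on a gradient, and a larger amount of antibody was used for eIF4A1 than for DDX6. The same experiment held 3 total RNA libraries and 3 eIF4A2 IP libraries, which entered the fits to estimate the spread. Levels are in CPM, counts relative to the library total after TMM scaling, unless unscaled CPM is stated. An IP library reports shares of the recovered RNA, so more of a transcript on DDX6 and less of the other transcripts on DDX6 cannot be told apart.

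eIF4A1 and DDX6 are DEAD-box RNA helicases of the same fold with different partners. eIF4A1 joins the cap-binding protein eIF4E and the scaffold eIF4G in the eIF4F complex, which prepares mRNAs for loading of the small ribosomal subunit. DDX6 acts in translational repression and decapping. It binds CNOT1, the scaffold of the Ccr4-Not deadenylase complex, and in cytoplasmic P bodies it meets the decapping enzyme, its activators and the RNA-binding proteins PATL1, EDC3, LSM14A and 4E-T. A direct contrast of both IPs asks which transcripts were recovered more with one helicase than with the other.

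The 6 libraries were deep and much alike. The DDX6 IP libraries held 44209592, 43354027 and 45429276 counts and the eIF4A1 IP libraries 40037716, 46018900 and 38266593, and 17474 of 55765 counted symbols passed the filter on low counts. The neurofilament genes NEFM (553 to 1760 unscaled CPM) and NEFL (151 to 374 unscaled CPM), typical of HEK293, were found in all 6 libraries. The other HEK293 markers chosen were far lower, with LHX1 at 8.0 to 14.2, INA at 2.55 to 2.99 and PAX2 at 0.52 to 1.59 unscaled CPM. PAX2 did not reach 1 unscaled CPM in every DDX6 IP library. Of 13 markers of other cell types, 11 stayed under 1 unscaled CPM in every library, the exceptions being COL1A1 (8.17 to 19.9 CPM) and GFAP (0.995 to 1.75 CPM). Their summed level was 10.3 to 14.1 CPM in the DDX6 IP and 12.5 to 22.4 CPM in the eIF4A1 IP.

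Same-numbered libraries of both IPs deviated together from their group means. The correlation of these deviations across genes was 0.285, 0.628 and 0.515 for replicates 1, 2 and 3, and it lay between -0.534 and -0.00584 for differently numbered libraries. Deviations from a group mean cancel within the group, so positive values for like numbers push those for unlike numbers below zero. The negative values are therefore no separate evidence of pairing. The SD of the log2 difference between libraries was 0.497, 0.375 and 0.365 for DDX6 and eIF4A1 IP libraries of replicates 1, 2 and 3. It was 0.421 to 0.628 for differently numbered libraries of both IPs, 0.472 to 0.511 within the eIF4A1 IP and 0.39 to 0.472 within the DDX6 IP. By this measure DDX6 IP replicate 1 lay closer to eIF4A1 IP replicates 2 (0.421) and 3 (0.447) than to replicate 1 (0.497). The labels do not say whether the same number marks the same lysate. Results are therefore given without pairing and with the replicate number as a block, named unpaired and paired below.

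Few transcripts separated the IPs by a large margin. The median size of the unpaired log2 fold change was 0.21 over all genes tested, and 181 genes (1.04%) exceeded 1 in size, of which 71 were higher and 110 lower in the DDX6 IP. The 95% interval of the unpaired log2 fold change lay wholly within 1 of zero for 13753 genes (78.7%), and wholly beyond it for 3 genes. By the same measure, the eIF4A2 IP differed from the eIF4A1 IP by a median of 0.232 and from the DDX6 IP by 0.343. These contrasts share libraries with each other, and their medians were not tested against each other.

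In the unpaired test 14 genes were higher in the DDX6 IP (0.0801% of genes tested) and 2 were lower (0.0114%), at a Benjamini-Hochberg adjusted p under 0.05 from edgeR's quasi-likelihood test (FDR). At an unadjusted p under 0.05 the numbers were 1341 and 1097. In the paired test 1062 genes were higher (6.08%) and 668 lower (3.82%), and all 16 unpaired calls were kept. All 3 DDX6 IP libraries exceeded all 3 eIF4A1 IP libraries for 1600 genes (9.16%) and lay below them for 1524 genes (8.72%). Both counts of calls changed with the libraries used. Leaving out eIF4A1 IP replicate 1 left 0 unpaired calls in either direction (641 higher and 448 lower at an unadjusted p under 0.05). Leaving out replicate 1, 2 or 3 of both IPs left 6, 14 or 190 paired genes higher and 0, 4 or 181 lower.

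**Figure D1:**
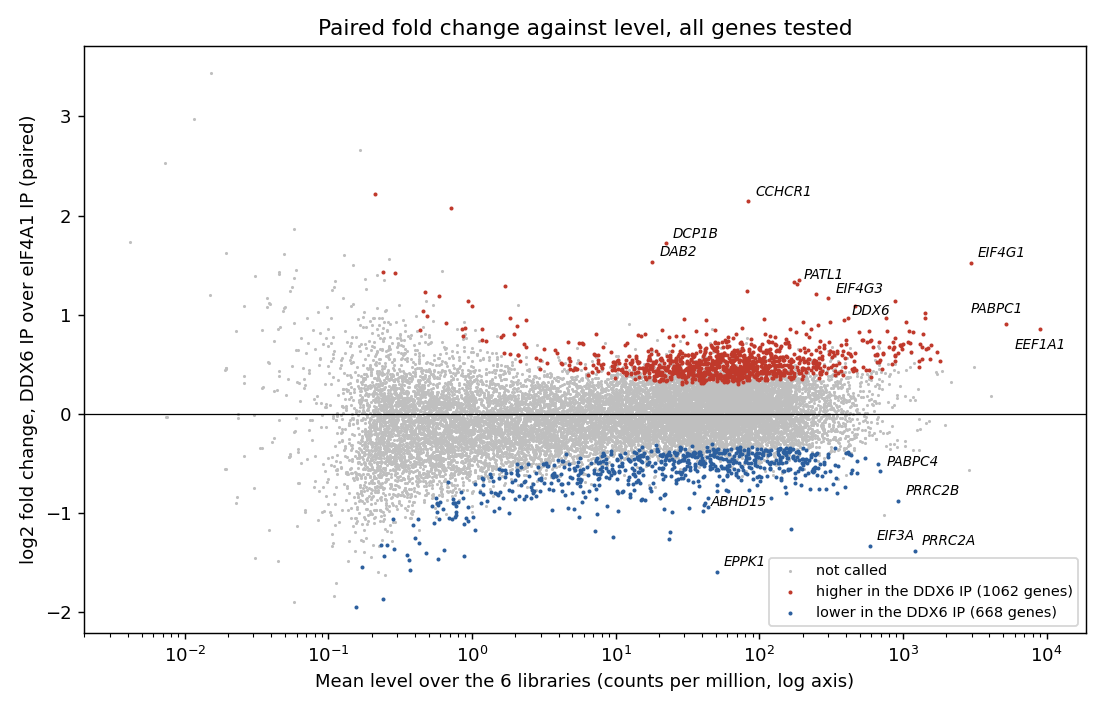
Paired log2 fold change of the DDX6 IP over the eIF4A1 IP (vertical axis) against the mean level over the 6 libraries in CPM (horizontal log axis), with 1 point per gene tested. The 1062 genes called higher and 668 called lower mostly lie within 1 log2 unit of zero, and CCHCR1, DCP1B, DAB2 and EIF4G1 stand above the rest of the genes of their level.

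The 14 unpaired genes, 0.0801% of all genes tested, included 6 of the 24 decapping and P-body factors. This list holds the bait DDX6 and was chosen with earlier results of these data known. CCHCR1 (chr6:31110216-31126015, hg19), which encodes a coiled-coil protein of P bodies, had 219, 109 and 85.7 CPM in DDX6 IP replicates 1 to 3 and 33.3, 32.1 and 23.6 CPM in the eIF4A1 IP. Every DDX6 IP library lay above every eIF4A1 IP library, with replicate 1 highest in both. Such separation held for 9.16% of all genes tested. For called genes, here and below, it comes from the libraries that gave the call and is no separate support. The unpaired log2 fold change was 2.22 (SE 0.30, FDR 0.0127), and the total RNA and eIF4A2 IP libraries averaged 39.6 and 28.8 CPM.

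DCP1A (chr3:53317449-53381613) and DCP1B (chr12:2055219-2113701) encode cofactors of the decapping enzyme DCP2. DCP1B had 49.4, 26.1 and 27.3 CPM in the DDX6 IP and 8.66, 12.3 and 9.72 CPM in the eIF4A1 IP (log2 1.74, SE 0.24, FDR 0.0127). DCP1A had 373, 183 and 258 CPM against 106, 87.7 and 120 CPM (log2 1.37, SE 0.22, FDR 0.027). Neither gene's groups overlapped, and in both the ratio was largest in pair 1. DCP2 itself, which carries the catalytic activity and was named after its values were seen, was not called and had 299, 275 and 333 CPM against 355, 307 and 401 CPM (paired log2 -0.23, FDR 0.19).

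PATL1 (chr11:59404189-59436510), a scaffold that links DDX6 to the decapping machinery, had the lowest unpaired FDR of all genes. It had 287, 233 and 256 CPM in the DDX6 IP and 101, 101 and 112 CPM in the eIF4A1 IP, close to the 98.4 CPM of total RNA and the 108 CPM of the eIF4A2 IP. The log2 fold change was 1.31 (SE 0.15, FDR 0.0108), and the log2 ratio was 1.51, 1.20 and 1.20 in pairs 1, 2 and 3. ATXN2 (chr12:111881289-112037480) encodes ataxin-2, an RNA-binding protein of stress granules that also interacts with DDX6. It had 333, 186 and 227 CPM against 99.9, 88.1 and 104 CPM (log2 1.36, SE 0.20, FDR 0.0198), again without overlap.

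The mRNA of DDX6 (chr11:118618472-118661873) was itself recovered more with the DDX6 antibody. It had 615, 404 and 522 CPM in the DDX6 IP and 251, 249 and 296 CPM in the eIF4A1 IP (log2 0.95, SE 0.15, FDR 0.033), against 172 CPM in total RNA. The EIF4A1 row, the mRNA of the other bait, held only 1.31 to 2.42 CPM in the 6 libraries, and the locus (chr17:7476142-7482324) is shared on the same strand with the SENP3-EIF4A1 readthrough gene, SNORA48 and SNORD10, whose part in the low count was not tested. EIF4A2, the paralogue, had 488, 488 and 474 CPM against 434, 469 and 462 CPM, with an unpaired 95% interval of the log2 fold change from -0.22 to 0.40.

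**Figure D2:**
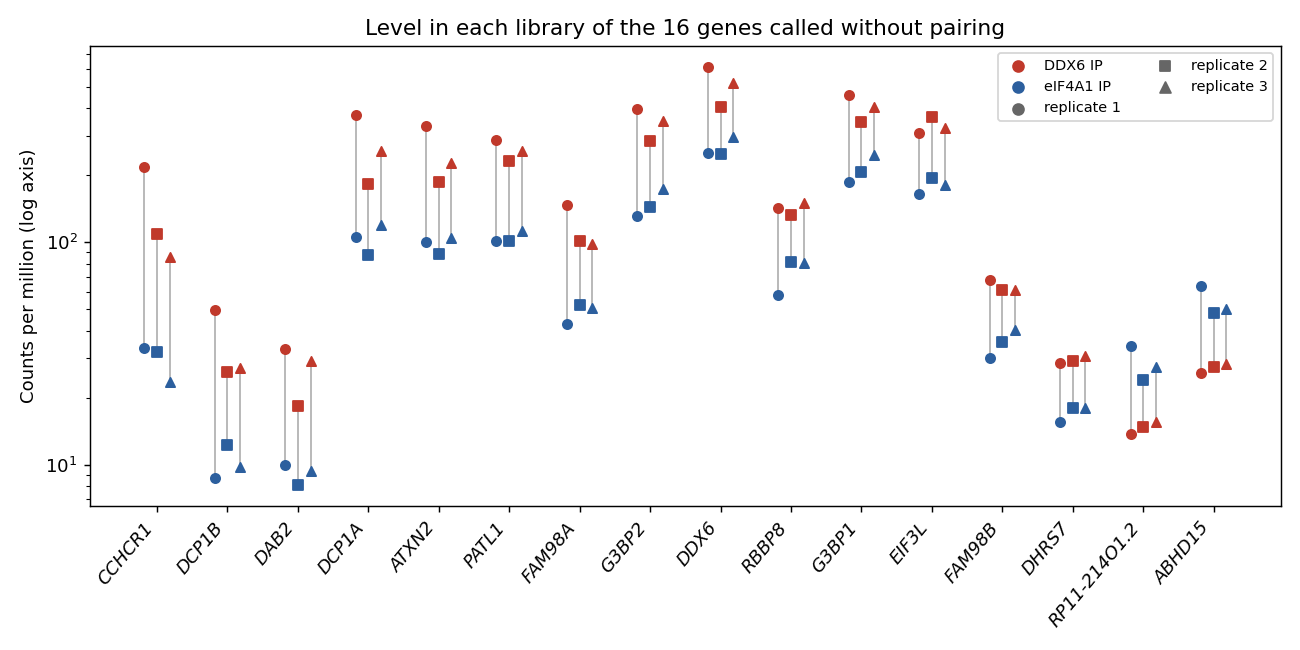
Level in CPM (vertical log axis) of the 16 genes called without pairing, ordered by log2 fold change, in each DDX6 IP library (red) and each eIF4A1 IP library (blue), with grey lines joining same-numbered libraries. In 14 genes every red point lies above every blue point, and in RP11-214O1.2 and ABHD15 every red point lies below. Over all genes tested the shares were 9.16% and 8.72%. The genes were chosen on these same libraries, so the separation is no added support.

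Further unpaired calls fell on mRNAs of stress granule proteins and of other functions. G3BP1 and G3BP2, which encode the paralogous nucleators of stress granules, had 461, 346 and 406 CPM and 398, 284 and 350 CPM in the DDX6 IP. In the eIF4A1 IP they had 187, 207 and 246 CPM and 131, 144 and 173 CPM. Their log2 fold changes were 0.92 (SE 0.15, FDR 0.033) and 1.20 (SE 0.16, FDR 0.0127). FAM98A and FAM98B encode related proteins found with the tRNA ligase complex and the helicase DDX1. FAM98A had 147, 101 and 98.4 CPM against 43.1, 52.0 and 50.8 CPM (log2 1.25, FDR 0.014), and FAM98B had 67.5, 61.2 and 61.1 CPM against 30, 35.5 and 40.5 CPM (log2 0.84, FDR 0.027). For each of these 4 genes the ranges of both IPs lay apart.

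The remaining 4 higher genes were DAB2, EIF3L, RBBP8 and DHRS7. DAB2, an adaptor of clathrin-mediated endocytosis, had 33.0, 18.3 and 29.3 CPM against 10, 8.07 and 9.37 CPM (log2 1.55, SE 0.20, FDR 0.0127). EIF3L, a subunit of the initiation factor eIF3, had 311, 365 and 328 CPM against 164, 194 and 181 CPM (log2 0.90, SE 0.13, FDR 0.0207). Both IPs recovered less EIF3L than total RNA, which averaged 472 CPM. RBBP8, the DNA end-resection factor CtIP, reached 0.95 (FDR 0.027), and DHRS7, a short-chain dehydrogenase, reached 0.78 (FDR 0.0198). The 2 lower genes were ABHD15, with 25.9, 27.4 and 28.4 CPM against 63.5, 47.9 and 50.3 CPM (log2 -0.98, FDR 0.0127), and the uncharacterised RP11-214O1.2, with 13.7, 14.7 and 15.6 CPM against 34.2, 24.0 and 27.5 CPM (log2 -0.96, FDR 0.0198).

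Of the 16 calls, those kept depended on the libraries in the fit. With only the 6 libraries of both IPs, 0 of 16 passed without pairing (FDR 0.178 to 0.367) and 16 passed with it (FDR 0.0147 to 0.0166). Of single libraries, leaving out eIF4A1 IP replicate 3 kept 2 calls, DDX6 IP replicate 1 kept 3, DDX6 IP replicate 3 kept 5, eIF4A1 IP replicate 2 kept 10 and DDX6 IP replicate 2 kept 11. The sign of each of the 16 was the same in every setting in which it was fitted. PATL1 was called in 26 of 28 settings, with a log2 fold change from 1.20 to 1.38, and CCHCR1 and DCP1B in 25.

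Across the whole list of decapping and P-body factors, 10 of 24 genes (41.7%) were higher and 0 lower in the paired test. Over all genes tested the shares were 6.08% higher and 3.82% lower. The median log2 fold change of the list was 0.29 beside -0.007 over all genes tested. The medians in pairs 1, 2 and 3 were 0.383, 0.365 and 0.276. With replicate 1, 2 or 3 of both IPs left out, 4, 7 or 8 of the 24 were still called higher. Other paired fits also called members lower: 3 beside 12 higher with only the 6 libraries compared, 2 beside 10 with offsets by coding GC content, 1 beside 10 with offsets by coding length and 1 beside 11 with DESeq2. The other paired calls of the list, named after their values were seen except for ATXN2L, fell on ATXN2L, EDC3, EIF4ENIF1 and LSM14A. ATXN2L, the relative of ATXN2, had 786, 536 and 559 CPM against 323, 284 and 270 CPM (paired log2 1.09, FDR 0.00286). EDC3, an enhancer of decapping, reached a paired log2 of 0.77 (FDR 0.00958). EIF4ENIF1, which encodes the eIF4E transporter 4E-T, reached 0.54 (FDR 0.0204), and LSM14A reached 0.43 (FDR 0.0253).

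The other 14 members were not called, and those given here were picked after their values were seen. The scaffold of decapping EDC4 (paired log2 -0.23, FDR 0.271), the exonuclease XRN1 (0.17, FDR 0.408) and the helicase MOV10 (-0.13, FDR 0.42) lay on both sides of zero. CPEB2, a regulator of cytoplasmic polyadenylation and translation, stood at -0.03 (FDR 0.935). Members called higher thus stood beside uncalled members of the same pathway with point estimates on both sides of zero. Of all 24 members 18 had a paired log2 fold change above zero, and 18 were higher and 5 lower in all 3 pairs.

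Scaffolds of the cap-binding complex showed large paired differences. EIF4G1 (chr3:184032283-184053146), the major eIF4G that holds eIF4A and eIF4E, had 4950, 4850 and 3360 CPM in the DDX6 IP and 1990, 1300 and 1260 CPM in the eIF4A1 IP. The groups did not overlap, the ratio was largest in pair 2 (1.90), and the log2 fold change was 1.53 without pairing (FDR 0.125) and 1.52 with it (FDR 0.00623). EIF4G3, its paralogue, had 439, 436 and 384 CPM against 185, 162 and 208 CPM (paired log2 1.17, FDR 0.00827). The 16 eIF4 factors tested had a median of 0.24. In the paired test 5 of them were higher (31.2%, beside 6.08% of all genes tested) and 0 lower. The other 3 were EIF4EBP1 (0.60, FDR 0.0353) and EIF4E (0.55, FDR 0.0137), the inhibitor and the cap-binding subunit, and EIF4E3 (0.40, FDR 0.0369), which was named after its value was seen. With replicate 1 or 2 of both IPs left out, 0 of the 16 were called.

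The genes for poly(A)-binding proteins went in opposite directions. PABPC1 (chr8:101698044-101735037), the main cytoplasmic poly(A)-binding protein, had 7440, 6670 and 6440 CPM in the DDX6 IP and 3450, 3900 and 3570 CPM in the eIF4A1 IP, against 1250 CPM in total RNA. Its paired log2 fold change was 0.91 (SE 0.14, FDR 0.00623) and its unpaired FDR was 0.0736. PABPC4 had 549, 585 and 526 CPM against 926, 767 and 779 CPM, a paired log2 fold change of -0.57 (FDR 0.0153). Neither gene's groups overlapped, but the 2 genes separated in opposite senses. The counts of PABPC1 may include reads shared with near-identical copies, whose part was not tested. The other 9 of the 11 tested members of this list were not called. Each direction thus held 9.09% of the list, beside 6.08% higher and 3.82% lower over all genes tested.

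Among 39 translation factors other than eIF4, 13 were higher (33.3%) and 3 lower (7.69%) in the paired test. Over all genes tested the shares were 6.08% and 3.82%. EEF1B2 and EEF1A1 of the elongation factor eEF1 were higher by 0.82 (FDR 0.00722) and 0.85 (FDR 0.0141). The eIF3 subunits EIF3L, EIF3I (0.78, FDR 0.0101), EIF3E (0.77, FDR 0.00882), EIF3H (0.64, FDR 0.0126) and EIF3F (0.57, FDR 0.012) were higher, while EIF3A, the largest subunit, was lower. EIF3A (chr10:120793182-120840329) had 405, 294 and 322 CPM in the DDX6 IP and 759, 736 and 1010 CPM in the eIF4A1 IP. Its groups did not overlap, and its paired log2 fold change was -1.33 (SE 0.28, FDR 0.0152) with an unpaired FDR of 0.145. The other lower factors were GSPT2, a release factor (-0.72, FDR 0.0115), and EIF1B (-0.56, FDR 0.0103). EIF3H, EIF3F, EEF1A1, GSPT2 and EIF1B were named after their values were seen. With replicate 1, 2 or 3 of both IPs left out, 0, 0 or 5 of the 39 were called higher and 0 lower, and EIF3A had an FDR of 0.156, 0.135 or 0.0625.

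In the paired test 33 of 52 large subunit (63.5%) and 18 of 33 small subunit (54.5%) ribosomal protein genes were higher, beside 6.08% of all genes tested. In both lists 0 were lower, and 0 were called without pairing. The paired log2 fold change was above zero for all 52 and all 33 genes, with medians of 0.61 in both lists. In pairs 1, 2 and 3 the medians were 0.679, 0.644 and 0.526 for the large subunit and 0.620, 0.647 and 0.468 for the small subunit. Summed over its members, the large subunit list took 4.01 to 5.77% of the counts of DDX6 IP libraries and 2.84 to 3.99% of those of eIF4A1 IP libraries. With replicate 1, 2 or 3 of both IPs left out, the number called fell to 1, 1 or 7 for the large subunit and 0, 0 or 4 for the small subunit.

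RPS3A (chr4) had 1540, 2480 and 1660 CPM in the DDX6 IP against 727, 1160 and 904 CPM (paired log2 1.02, FDR 0.00623). RPL6 had 917, 1270 and 804 CPM against 366, 706 and 475 CPM (0.96, FDR 0.00695). RPL7 had 1040, 1550 and 1070 CPM against 448, 678 and 535 CPM, the largest paired difference among ribosomal protein genes (1.14, FDR 0.00286). In RPS3A and RPL7 replicate 2 was highest in both IPs, and the DDX6 IP libraries lay above all eIF4A1 IP libraries. Total RNA held more of each (2320, 1720 and 1710 CPM on average) than the mean of either IP. Ribosomal protein genes have many processed pseudogenes, and a division of reads with them was not tested. RPS21 had 726, 1280 and 711 CPM against 596, 936 and 546 CPM, with overlapping groups (paired log2 0.38, FDR 0.213). The study lists RPS21 as bound only by DDX6, from enrichment over input, which is a different contrast.

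Many ribosomal protein mRNAs share a terminal oligopyrimidine (TOP) start, a C followed by a run of pyrimidines, through which growth signals control their translation. The first 15 bases of the canonical transcript are shown for 5 members of the higher group that have such a start and for 2 decapping cofactors that have none, so that both kinds of start among genes called higher can be read side by side. They were read from hg19 at the starts annotated by GENCODE release 44, and capitals mark the unbroken run of pyrimidines from a first C.
RPS3A (chr4:152020780-152020794, plus strand): CCCTTTTggctctct
RPS6 (chr9:19380220-19380234, minus strand): CTCTTTTCCgtggcg
RPS25 (chr11:118889039-118889053, minus strand): CTTTTTgtccgacat
RPL6 (chr12:112847395-112847409, minus strand): CTCTTTCCCatcttg
EEF1A1 (chr6:74230741-74230755, minus strand): CTTTTTCgcaacggg
DCP1A (chr3:53381556-53381570, minus strand): agaggggctaggctc
DCP1B (chr12:2113609-2113623, minus strand): gtgcctatgtctggg

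Counting as TOP-like a first base C followed by at least 4 pyrimidines on the sense strand, 702 of 13259 annotated starts (5.29%) qualified. The share was 115 of 952 (12.1%) among the paired higher genes, 22 of 481 (4.57%) among the paired lower genes and 60 of 84 (71.4%) among ribosomal protein genes. Without ribosomal protein genes it was 8.09% of the higher genes. In the other direction, 16.4% of the 702 genes were called higher, and 11.4% of those that were not ribosomal protein genes, against 6.67% of genes with another start. The median difference of the 642 TOP-like genes outside the ribosome was 0.1, 0.058 and 0.054 in pairs 1, 2 and 3, and that of genes with another start was 0.046, 0.011 and 0.020. Annotated starts need not be the starts used in HEK293, and the match is a description of the letters.

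Members of the nuclear-encoded mitochondrial lists that passed the paired test were all higher in the DDX6 IP, with smaller medians. The shares called higher were 48.0% for mitochondrial ribosomal proteins, 39.5% for complex I, 37.5% for complexes II to V and 23.8% for import. Over all genes tested the share was 6.08%. Of 75 mitochondrial ribosomal protein genes 36 were higher and 0 lower in the paired test (median 0.39), led by MRPS10 with 69.8, 93.0 and 67.3 CPM against 36, 55.2 and 43.8 CPM (0.77, FDR 0.00368). Of 38 complex I subunits 15 were higher and 0 lower (median 0.38), NDUFB11 by 0.73 (FDR 0.012) and NDUFA12 by 0.71 (FDR 0.00953). Of 40 subunits of complexes II to V 15 were higher and 0 lower (median 0.37), UQCRB of complex III by 0.85 (FDR 0.0068) and COX6A1 of complex IV by 0.72 (FDR 0.00827). Of 21 import factors 5 were higher and 0 lower (median 0.28), including the receptor TOMM22 (0.80, FDR 0.00827) and the channel subunit TIMM17A (0.72, FDR 0.00623). TIMM13, a small chaperone of the intermembrane space, was not called, with 303, 475 and 269 CPM against 251, 385 and 178 CPM (0.39, FDR 0.16). The study lists it too as bound only by DDX6, from enrichment over input. Its RIP-Seq had already linked DDX6 to mRNAs of P-body components and of mitochondrial function. Of 9 tested genes of the mitochondrial genome 0 were called, and MT-ND1, MT-ND2, MT-CO2 and MT-ATP8 had at most 0.158 CPM in the 6 libraries.

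Of 35 proteasome genes 13 were higher (37.1%, beside 6.08% of all genes tested) and 0 lower in the paired test (median 0.38). Among the higher genes were PSMD7 (0.62, FDR 0.0108) and PSMC1 (0.61, FDR 0.0116). Of 8 subunits of the CCT chaperonin, which folds actin and tubulin, 3 were higher (37.5%) and 0 lower (median 0.33). CCT5 had 288, 276 and 270 CPM against 180, 193 and 209 CPM (0.52, FDR 0.0245). No member of the 4 mitochondrial lists, the proteasome or the chaperonin was called without pairing, and with replicate 1 or 2 of both IPs left out none was called with it. With offsets by coding length in the paired fit, the median went to 0.102 for import factors, 0.224 for complex I and 0.207 for complexes II to V. In that fit 28 mitochondrial ribosomal protein genes were higher and 1 was lower.

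**Figure D3:**
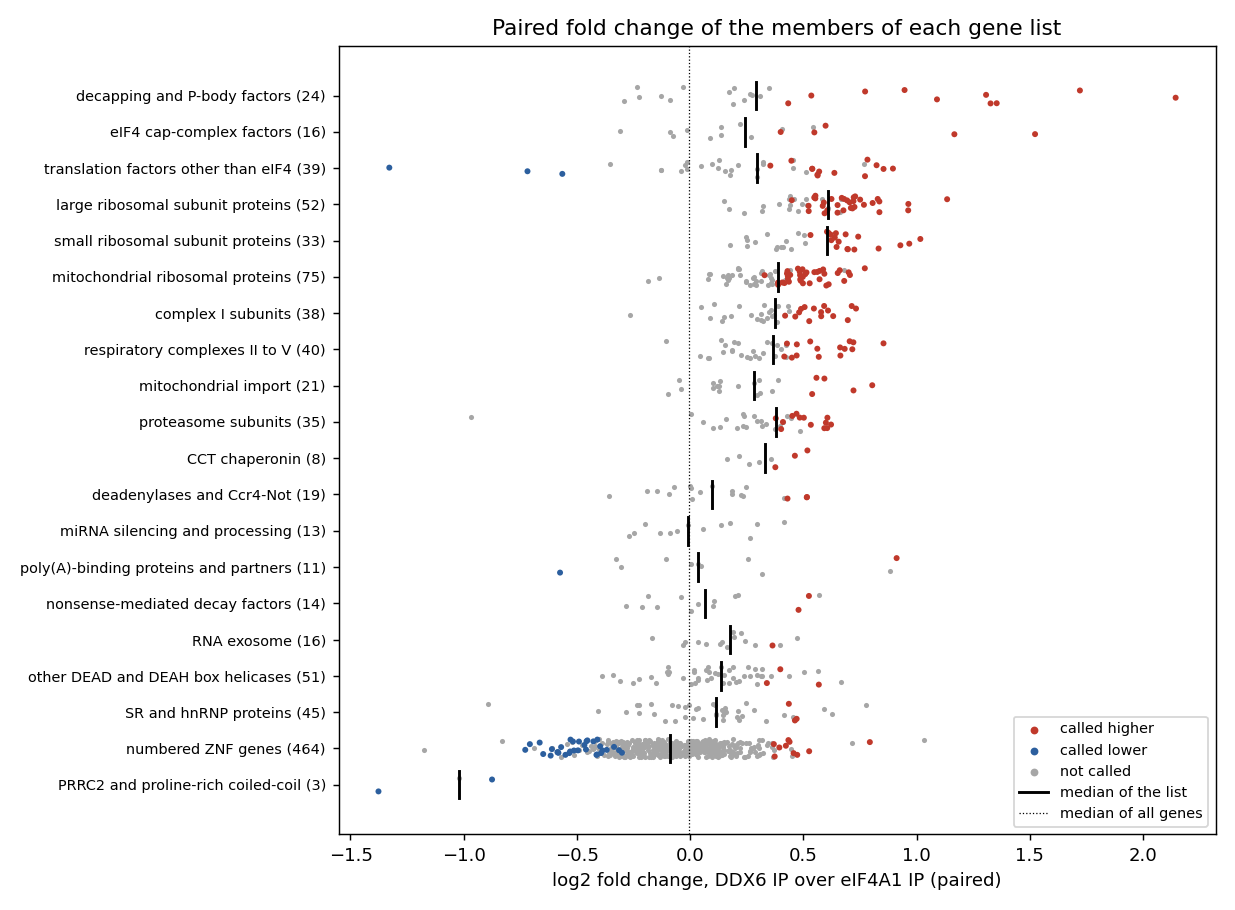
Paired log2 fold change (horizontal axis) of the tested members of 20 gene lists, with the number of members in brackets; red and blue points were called higher and lower in the DDX6 IP, grey points were not called, and black bars are medians. Ribosomal protein genes lie wholly right of zero, the 3 PRRC2 genes lie wholly left, and numbered ZNF genes lie on both sides with a median of -0.09.

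Of 19 deadenylase and Ccr4-Not genes 3 were higher (CNOT7 0.52, CNOT4 0.52 and PARN 0.43, FDR 0.0116 to 0.0273) and 0 lower, which is 15.8% beside 6.08% of all genes tested. CNOT1 had 453, 359 and 503 CPM in the DDX6 IP and 338, 268 and 380 CPM in the eIF4A1 IP. It was higher in each pair by 0.42, 0.42 and 0.40, its groups overlapped, and its paired FDR was 0.0622. Of 13 genes of miRNA silencing and processing 0 were called, with paired log2 fold changes from -0.27 to 0.41, and TNRC6A, an Argonaute partner, stood at 0.41 (FDR 0.119). The exon junction components RBM8A and MAGOHB were the 2 higher genes of 14 nonsense-mediated decay factors (14.3%). EXOSC3 was the 1 higher gene of 16 in the exosome list (6.25%, close to the 6.08% of all genes). That list also holds the cofactors SKIV2L, TTC37, WDR61 and SKIV2L2. With replicate 1, 2 or 3 of both IPs left out, 0 genes of the deadenylase, nonsense-mediated decay and exosome lists were called.

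Of 51 other DEAD and DEAH box helicases 3 were higher (DHX9 0.57, DDX1 0.40 and DDX50 0.34), and of 45 SR and hnRNP genes 3 were higher, among them HNRNPA1 (0.47) and HNRNPA3 (0.44). These shares, 5.88% and 6.67%, are close to the 6.08% of all genes tested. Lists with 1 or 2 calls were the kinesins (1 higher of 36, 2.78%, KIF20A) and KMT2 and SETD1 methyltransferases (1 higher of 7, 14.3%, KMT2C). Others were snoRNA host genes (SNHG5 higher and SNHG9 lower of 15, 6.67% each) and histones (HIST2H2BC lower of 25, 4.0%). Of 75 snoRNA and scaRNA rows, SCARNA10 and SNORA23 were higher (2.67%, at most 1.29 CPM). Over all genes tested 6.08% were higher and 3.82% lower. RAB12 and STX2, vesicle traffic genes, had unpaired 95% intervals of the log2 fold change from -0.35 to 0.33 and from -0.45 to 0.23. The study lists both as bound by eIF4A2 and DDX6.

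The largest named paired decrease in the DDX6 IP was that of EPPK1. EPPK1, the cytolinker epiplakin, had 36.5, 15.9 and 15.2 CPM in the DDX6 IP and 162, 36.9 and 36.7 CPM in the eIF4A1 IP. Its groups barely separated, with replicate 1 far above the others in both, and its log2 fold change was -1.59 with pairing (FDR 0.00827) and -1.80 without (FDR 0.234). PRRC2A and PRRC2B belong to a family of large proline-rich proteins that bind RNA. PRRC2A had 947, 702 and 434 CPM against 2120, 1580 and 1460 CPM (paired log2 -1.38, FDR 0.0116), and PRRC2B had 787, 615 and 533 CPM against 1680, 897 and 1020 CPM (-0.87, FDR 0.0141). Both had their groups apart. They were 2 of the 3 tested genes of the family (66.7%), beside 3.82% lower over all genes tested. PRRC2C, the third member, had 642, 394 and 434 CPM against 611, 1080 and 1240 CPM, so that it was level in pair 1 (0.07) and lower in pairs 2 and 3 (-1.45 and -1.52), and it was not called (FDR 0.0543). Without replicate 1, 2 or 3 of both IPs none of the 3 was called.

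The other large decreases were PRX, which encodes periaxin (-0.97, FDR 0.00623), LINC00205 (-0.95, FDR 0.00476) and 5 uncharacterised rows, the most abundant of which was RP11-215G15.5 with 109, 89.7 and 105 CPM against 315, 163 and 219 CPM (-1.16, FDR 0.00376). By gene type, 1022 of 13705 protein-coding genes were higher (7.46%) and 492 lower (3.59%). Among long noncoding RNAs 2 of 625 were higher (0.32%) and 40 lower (6.4%), and their median difference was -0.303, -0.124 and -0.085 in pairs 1, 2 and 3. Protein-coding genes made up 96.2% of the higher and 73.7% of the lower calls, and 13705 of the 17474 genes tested. Another 112 of the lower calls fell on symbols that the annotation did not place. Of 2571 such symbols tested 4.36% were lower and 0.856% higher, beside 3.82% and 6.08% of all genes. The 464 numbered ZNF genes, most of which encode zinc finger transcription factors, had a median of -0.09. Of these, 33 were lower (7.11%, beside 3.82% of all genes tested) and 10 higher (2.16%, beside 6.08%). With replicate 1, 2 or 3 of both IPs left out, 0, 0 or 6 of them were called lower. ZNF324B had 28.4, 29.7 and 27.5 CPM against 60.3, 46.5 and 37.3 CPM (-0.73, FDR 0.00695), whereas ZNF57 was higher by 0.79 (FDR 0.00376).

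The coding transcripts called in each direction differed in length and composition. Values came from the canonical transcript and were found for 1020 of 1022 coding higher genes and 487 of 492 coding lower genes, but only for 72.9% of all lower calls, so they describe coding genes alone. The median coding length was 885 nt in the higher genes, 1608 nt in the lower genes and 1431 nt over all tested genes with a value. The median 5′UTR length was 74.5, 264 and 145 nt in the same order, and the median GC content of the coding sequence was 46.96, 61.44 and 52.49%. In the shortest quartile of coding length (78 to 900 nt) 15.3% of genes were higher and 2.28% lower, while in the longest (2286 to 107976 nt) 2.97% were higher and 3.47% lower.

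These relations were not equally strong in all pairs. Across 13606 coding genes, the rank correlation of the pair ratio with 5′UTR length was -0.238, -0.275 and -0.314 in pairs 1, 2 and 3, and with coding length -0.113, -0.207 and -0.217. With coding GC content it was -0.370 and -0.387 in pairs 1 and 2 but -0.102 in pair 3. The purine tetramers that the study counted as polypurine motifs were counted per 100 nt. In coding sequence their median was 3.60 in the higher genes, 2.08 in the lower genes and 3.00 over all tested genes with a value. Their rank correlation with the pair ratio was 0.413, 0.269 and 0.034. In the 5′UTR the medians were 1.64, 1.51 and 1.68 in the same order. There the rank correlation across 13018 genes was 0.032, 0.029 and -0.046. Genes are not independent replicates and all share the same 6 libraries, so these values are descriptions. After the median of genes of like coding length was subtracted, an adjustment chosen after seeing the data, the large subunit list stood at 0.479, 0.463 and 0.358 in pairs 1 to 3, and after that of like coding GC content at 0.580, 0.553 and 0.483. The decapping list stood at 0.382, 0.322 and 0.228 and at 0.248, 0.259 and 0.238. Mitochondrial lists shrank more with coding length, the import list from 0.224, 0.270 and 0.160 to 0.081, 0.131 and 0.018 and complexes II to V from 0.424, 0.366 and 0.310 to 0.291, 0.215 and 0.153.

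**Figure D4:**
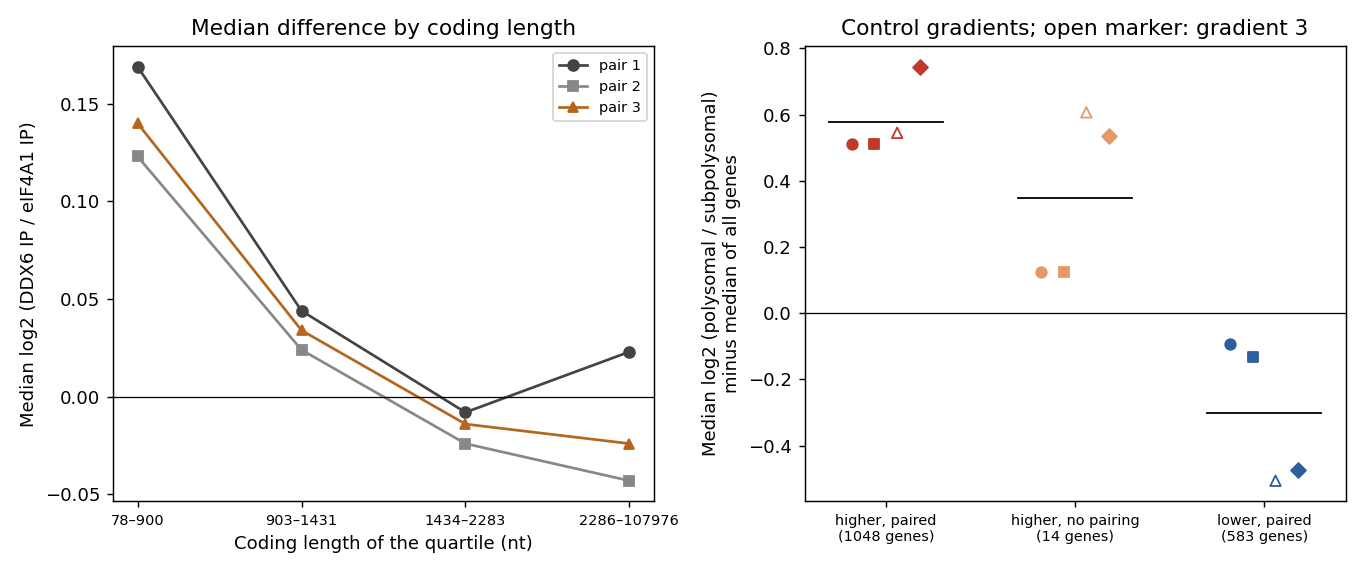
Left, median log2 ratio of DDX6 IP over eIF4A1 IP in each pair (vertical axis) by quartile of coding length in nt (horizontal axis); the shortest quartile lies at 0.123 to 0.169. Right, median log2 ratio of polysomal over subpolysomal RNA (vertical axis) for 3 sets of genes in each of 4 control gradients, with black bars for means. The median of all genes kept by the filter on level was subtracted. Both higher sets lie above zero in each gradient and the lower set below.

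Polysome gradients of HEK293 cells with control siRNA gave a readout independent of the IPs. Genes with a mean of at least 1 CPM over the control polysomal and subpolysomal libraries were kept, 13594 of the 17474 tested. For each gradient the log2 ratio of polysomal over subpolysomal CPM was taken per gene, with 0.5 CPM added to both. The median of all genes kept was subtracted. The paired higher genes (1048 of 1062 kept) had medians of 0.511, 0.511, 0.545 and 0.745 in gradients 1 to 4, a mean of 0.578 ± 0.113 (SD, n = 4). The paired lower genes (583 of 668 kept) had -0.092, -0.131, -0.506 and -0.475 (-0.301 ± 0.22, SD, n = 4). The 14 unpaired higher genes had 0.125, 0.124, 0.607 and 0.535 (0.348 ± 0.259, SD, n = 4). Each set had the same sign in 4 of 4 gradients, for which an exact two-sided sign-flip test gives p = 0.125, the smallest that 4 gradients allow. The library labelled control polysomal replicate 3 held 27.4 unscaled CPM of CNOT1, against 447 to 469 in the other 3, and so goes against its label. Without gradient 3 the means were 0.589, -0.233 and 0.261.

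After CNOT1 siRNA the same sets differed slightly in input RNA. The genes kept were those of the gradients. Relative to the median of all genes kept, the paired higher genes had a median log2 difference from control siRNA of -0.126 ± 0.029 (SD, n = 4). The paired lower genes had one of 0.051 ± 0.034 (SD, n = 4). The 14 unpaired higher genes had 0.225, 0.218, 0.195 and 0.069 in replicates 1 to 4, opposite in sign to the larger set. CNOT1 itself had 593 to 657 unscaled CPM in control input and 36.2 to 41.1 after CNOT1 siRNA. For siRNA against TNRC6A and TNRC6B, with 2 replicates, genes were kept at a mean of at least 1 CPM in the libraries of that experiment. The paired higher genes (1040 kept) had -0.034 and -0.030 and the paired lower genes (546 kept) -0.061 and 0.026. The 14 unpaired higher genes had 0.163 and 0.002.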

How the data were processed

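RNA from native IPs of HEK293 lysates was sequenced as stranded poly(A) libraries. Per the labels and the study's methods, the authors demultiplexed with bcl2fastq 2.0, aligned with TopHat2 to hg19 and counted reads per gene symbol with HTSeq. The deposited values are these raw counts. Annotation, strand option and other versions are not given in the sources used here, so overlapping and antisense genes may share reads.

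Here, counts of the 12 RIP libraries (total RNA, eIF4A1, eIF4A2 and DDX6 IP, n = 3 each) were filtered with filterByExpr, scaled by TMM and fitted with edgeR 4.0.16 (quasi-likelihood F-test, FDR threshold 0.05) in R 4.3.3, for DDX6 IP against eIF4A1 IP. The unpaired fit had no block, and the paired fit added the replicate number. Numbers were taken to pair libraries because every same-numbered correlation of deviations exceeded 0.1 (0.285, 0.628 and 0.515). The labels do not say whether libraries came from separate cultures, so p-values measure the spread between these libraries, which may be technical. Depth was 38266593 to 46018900 counts in the 6 libraries compared.

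The libraries, gene lists and tests were chosen with earlier results of these data known. Genes named were 11 set genes (EIF4A1, EIF4A2, DDX6, CNOT1, PABPC1, CCHCR1, DCP1B, RAB12, STX2, TIMM13 and RPS21), all unpaired calls, the 12 paired calls per direction with the largest change at 10 CPM or more and the same sign in all pairs, and up to 4 genes per list with the lowest paired p. Transcript features and starts came from GENCODE release 44 on GRCh37 (hg19). Scripts were tested on simulated data. Alternatives included DESeq2 1.42.0, other factors, filters and libraries left out. The rabbit IgG control named in the methods and a merged series table were not used here.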

Additional observations from a re-analysis of the deposited data

Results flagged for a closer look

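In 15 groups of 4 libraries or gradients, 3 values lay apart from the other 3 of their group by Dixon's ratio, which chance flags in about 1 of 20 groups. The median polysomal over subpolysomal log2 ratio of the paired higher genes was 0.745 in control gradient 4, against 0.511 to 0.545 in the others. CNOT1 stood at 27.4 CPM in the library labelled control siRNA polysomal replicate 3, against 447 to 469 CPM in the other 3. It stood at 590 CPM in the library labelled CNOT1 siRNA polysomal replicate 3, against 22.9 to 31.5 CPM. A swap of these labels was not tested.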

How the results depend on the processing

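Without pairing, 14 genes were higher and 2 lower in the DDX6 IP. The replicate block gave 1062 and 668, and no replicate block stands for 14 and 2. With only the 6 libraries of both IPs the unpaired counts were 0 and 0 and the blocked counts 2103 and 1337, of which 1659 were among the 1730 paired calls. With the 9 IP libraries and the block 1604 were higher. No filter on low counts gave 130 and 102 unpaired calls, the likelihood ratio test 106 and 59, and DESeq2 362 and 177, or 1657 higher with the block. Offsets by coding length, chosen after seeing the data, gave 69 and 23. The cause of these differences was not tested, including the part of the fewer degrees of freedom that fewer libraries leave. Leaving out 1 library gave 0 to 11 higher and 0 to 5 lower genes unpaired. Leaving out 1 pair gave 6 to 190 higher and 0 to 181 lower genes under the block. In all other alternatives the 4 counts stayed within 1.5 times.

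Sign changes of single named genes fell on uncalled values alone. List medians near zero changed sign as well, as for nonsense-mediated decay factors (0.072 unpaired, -0.054 with the block without pair 1). Those of the poly(A)-binding, miRNA, histone, snoRNA host gene and kinesin lists did so too. The log2 fold change of EIF4A2 turned to -0.035 with offsets by coding GC content, with or without the block. The log2 fold change of RAB12 turned to 0.005 with RLE factors and with DESeq2, to 0.006 with the block in both, to 0.008 with the 9 IP libraries, and to 0.033 and 0.038 with GC offsets. Leaving out libraries took it from -0.1 to 0.127, with 0.019 and 0.052 between, and gave 0.014 and 0.048 with the block. The log2 fold change of MT-ND2 ran from -1.423 to 0.331, with 0.053 without pair 1, and the median log2 fold change of mitochondrially encoded genes from -0.128 to 0.688, with -0.023 without eIF4A1 IP replicate 2. Counts near 0 limit these mitochondrial genes, and n = 3 limits the precision of all others.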
